A study of Mus musculus with 9 samples.

Results

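The genes of glucose breakdown were followed in microglia, the macrophages that live in brain tissue, which lacked the lipid-sensing receptor TREM2 or carried a human form of it. A list of 34 genes covered glucose uptake, glycolysis, lactate handling, pyruvate entry into mitochondria and the pentose phosphate pathway, and each gene was read from the probe set annotated to that gene alone, the one with the highest mean where several existed. Of the 34 genes, 30 had such a probe set and 28 passed the filter on low values, against 19938 and 10795 genes on the whole array. Not analysed here were Gpi1, Gapdh, Eno1 and G6pdx. For Gapdh, 25 probe sets each carried several gene symbols, so none could be read as Gapdh alone. Genes whose mean fell under the median probe set (5.31 on the log2 scale) were not tested, which left out Pfkp and Eno2.

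The arrays came from 9 mice, 3 in each of 3 groups, all 8.5 months old, all with the 5XFAD transgenes that drive amyloid deposition, and all deficient in murine TREM2. The KO group expressed no human TREM2, the R47H group the R47H variant, a known risk allele for Alzheimer's disease, and the CV group the common variant. In each group mouse 1 was female and mice 2 and 3 were male, so sex cannot be told apart from being mouse 1. How the human forms were introduced, and from how many founder lines, is not stated in the labels. In the sorted CD45+ CD11b+ cells 11 microglial markers, among them Tyrobp and C1qa, had a mean log2 value of 11.54 to 11.78 on every array. Other cells were not absent. The mean of 10 neutrophil markers (S100a8 and S100a9 among them) ran from 6.22 to 9.996 in KO, from 6.97 to 8.18 in R47H and from 9.09 to 10.04 in CV, with KO mouse 3 at the KO maximum. The mean of 8 oligodendrocyte markers, such as Cnp and Mbp, ran from 6.05 to 6.84 in KO, 7.26 to 7.64 in R47H and 6.03 to 6.43 in CV. Microglial markers were lower in CV than KO, with a median difference of -0.16 over the 11 genes. For 7 of them every CV mouse lay below every KO mouse (63.6%, against 8.05% of all tested genes). For 6 every R47H mouse lay above every CV mouse (54.5%, against 8.74%). In bulk RNA of this kind, fewer cells of a type and less RNA per cell cannot be told apart.

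Glycolysis splits glucose into pyruvate in the cytosol. Pyruvate is then either reduced to lactate by lactate dehydrogenase and exported, or carried into mitochondria and oxidised by the pyruvate dehydrogenase complex, which pyruvate dehydrogenase kinases switch off by phosphorylation. The pentose phosphate pathway draws off glucose 6-phosphate to make NADPH and ribose. Macrophages that are activated commonly shift toward glycolysis, and the hypoxia-inducible factor HIF-1, a dimer of Hif1a and Arnt, drives transcription of many of these genes.

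HIF-1 binds a short core, ACGTG or GCGTG, which was looked for in the promoters. In the 250 bases before the RefSeq start sites (build GRCm38.p6), all 34 listed genes matched at least 1 window, 50 in all. Of these windows 39 (78.0%) held ACGTG or GCGTG on either strand, compared with 38.6% of 32851 windows over all genes. Counted by gene it was 30 of 34 (88.2%), against 41.5% of all genes with a window. Some windows of the same gene overlap and share matches. Both cores contain CG, and the comparison was not matched for base content or for expression. ACGTG also lies inside CACGTG, the E-box bound by Myc and related factors, which occurred in windows of 6 of the 34 genes (17.6%, against 6.86% of all genes). A match is a description of letters and not a bound site. The windows of 4 genes are shown, with each match in capitals. Ldhb had the largest genotype difference, Ldha is its paralogue with 5 matching positions, 4 of them in 2 copies of CACGTG, Pgk1 had the smallest p in the comparison of the sexes, and Pdhb had the largest positive difference of R47H from KO. They lie at chr6:142507958-142508207 (minus strand), chr7:46845554-46845803 (plus strand, the first of 2 Ldha windows), chrX:106186850-106187099 (plus strand) and chr14:8172993-8173242 (minus strand, at a start inside the annotated span of Pdhb).
Ldhb: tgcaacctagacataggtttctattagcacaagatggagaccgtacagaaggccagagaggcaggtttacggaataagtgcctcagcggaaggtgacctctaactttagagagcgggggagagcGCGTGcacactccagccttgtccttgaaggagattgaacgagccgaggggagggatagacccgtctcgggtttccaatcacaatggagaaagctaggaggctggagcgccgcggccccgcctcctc
Ldha: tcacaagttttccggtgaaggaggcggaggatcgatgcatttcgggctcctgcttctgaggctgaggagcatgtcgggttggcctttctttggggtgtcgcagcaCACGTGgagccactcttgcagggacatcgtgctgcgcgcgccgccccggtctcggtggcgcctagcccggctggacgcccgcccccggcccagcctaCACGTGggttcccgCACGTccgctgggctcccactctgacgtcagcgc
Pgk1: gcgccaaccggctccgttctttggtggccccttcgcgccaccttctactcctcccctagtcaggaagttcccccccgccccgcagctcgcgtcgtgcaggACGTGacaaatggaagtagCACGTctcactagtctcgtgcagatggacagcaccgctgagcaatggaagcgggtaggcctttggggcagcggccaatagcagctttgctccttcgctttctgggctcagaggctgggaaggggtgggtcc
Pdhb: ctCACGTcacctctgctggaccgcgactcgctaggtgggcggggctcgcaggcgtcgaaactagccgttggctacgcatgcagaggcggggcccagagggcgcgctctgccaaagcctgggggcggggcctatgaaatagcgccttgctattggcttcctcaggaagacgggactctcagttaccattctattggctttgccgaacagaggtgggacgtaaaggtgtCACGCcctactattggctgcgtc

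No gene of the list passed the test in any genotype comparison. In CV minus KO, 0 of 28 were called (limma, Benjamini-Hochberg adjusted p under 0.05 over all 10795 genes), where 1.21% of all genes were called. In R47H minus KO the count was 0 against 0.0834%, in R47H minus CV 0 against 0.797%, and in the F-test of any genotype difference 0 against 1.32%, with 4 genes at an unadjusted p under 0.05 (14.3%, against 1294 of 10795 genes). At an unadjusted p under 0.05 limma gave 4 genes in CV minus KO (14.3%, against 13.2% of all genes), 3 in R47H minus KO (10.7%, against 5.68%) and 4 in R47H minus CV (14.3%, against 12.4%). In the main model, which had no term for other cells, the precision was enough to bound the changes. Over the 28 genes and 3 comparisons, the 95% confidence intervals of the log2 differences lay between -0.74 and 0.61, so 0 intervals reached a difference of 1, which is a doubling or a halving. The median standard error (SE) of a difference was 0.10. These intervals are not adjusted for the number of genes, and the bound does not extend to the alternative models. With the oligodendrocyte marker mean as a covariate, for example, Pgm2 in R47H minus KO was -0.77.

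**Figure D1:**
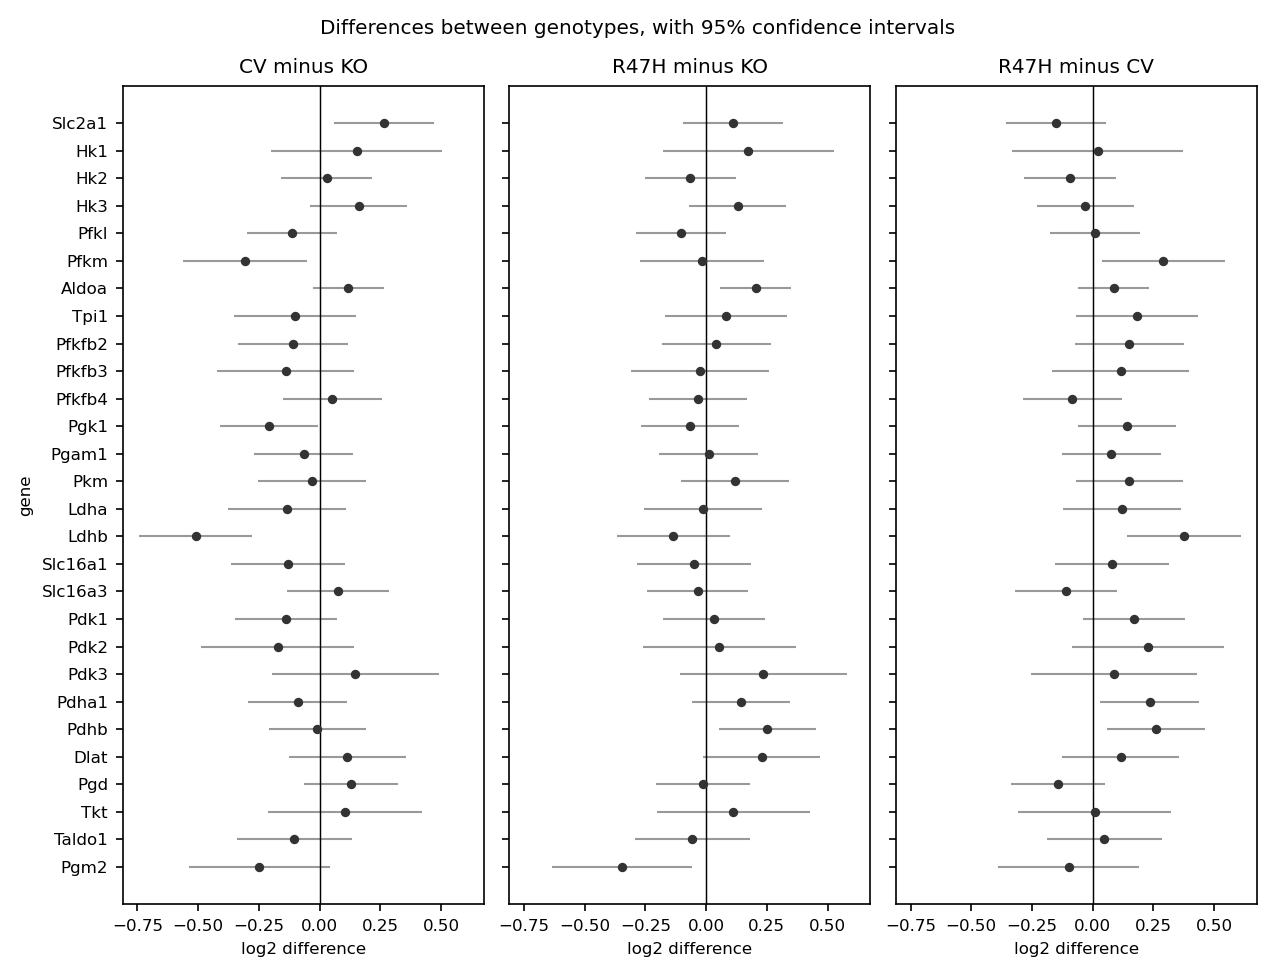
Log2 differences of the 28 tested glucose metabolism genes between genotypes (points) with their 95% confidence intervals from the limma model (lines), one panel per comparison, n = 3 mice per group. Every interval stays between -0.74 and 0.61, and Ldhb in CV minus KO lies farthest from 0.

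Taken as a list, the 28 genes had small differences. The median difference of the 28 was -0.08 in CV minus KO, 0.02 in R47H minus KO and 0.09 in R47H minus CV, beside -0.02, -0.00 and 0.01 over all tested genes. In R47H minus CV 21 of 28 differences were above 0 (75.0%, against 53.4% of all genes), in CV minus KO 11 (39.3%, against 45.0%) and in R47H minus KO 15 (53.6%, against 49.6%). Single mice bore on the medians. In CV minus KO the median was -0.02 without KO mouse 1 and -0.03 without CV mouse 1 or CV mouse 3. In R47H minus KO it was 0.08 without R47H mouse 2, 0.05 without R47H mouse 1, and 0.01 without R47H mouse 3 or KO mouse 1. The genes were read from the same 9 arrays and are not independent, and these shares were not tested. CV minus KO and R47H minus KO share the KO mice. With the oligodendrocyte marker mean as a covariate the medians were -0.02, -0.08 and -0.01 in the same order. That marker mean was higher in every R47H mouse than in every other mouse, so the covariate and the R47H group cannot be fully told apart.

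**Figure D2:**
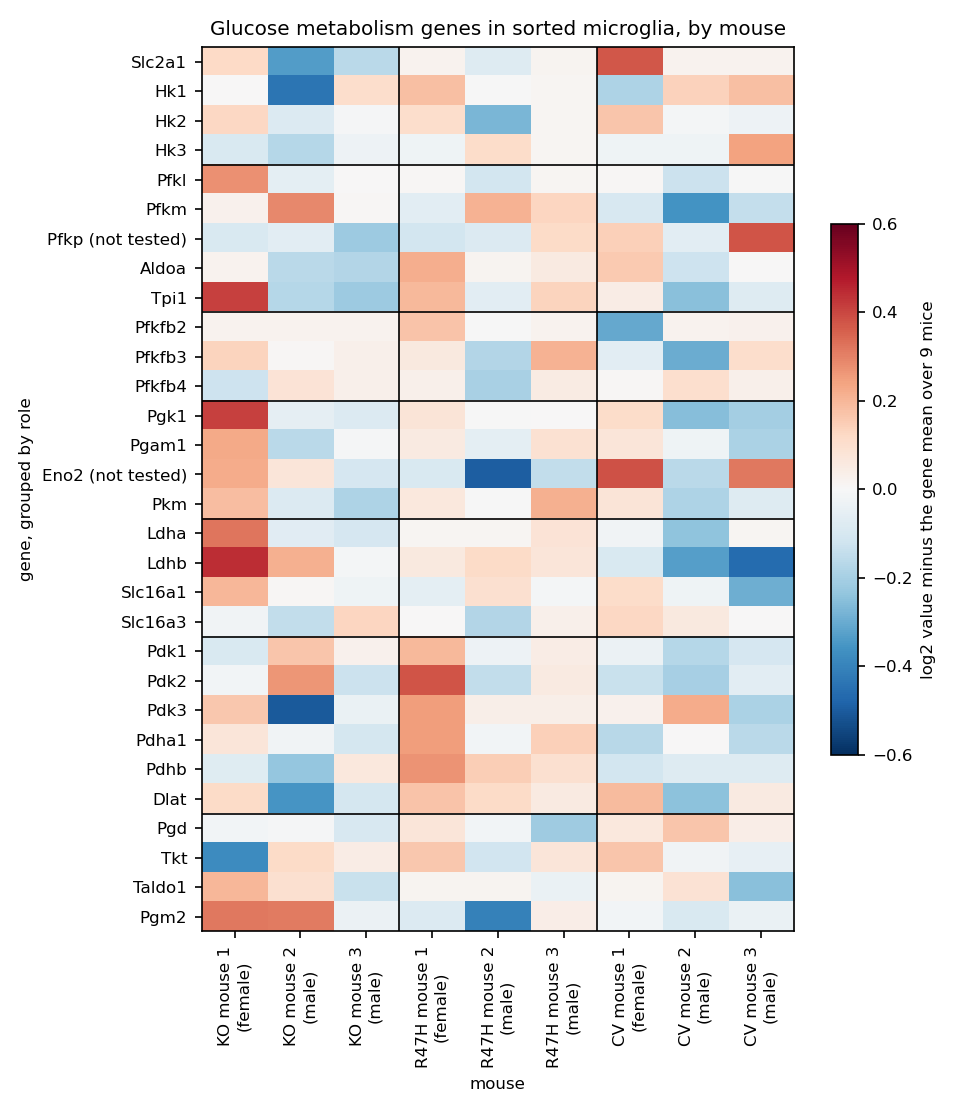
Log2 value of each gene in each mouse minus the mean of that gene over the 9 mice (colour), with genes grouped by role in rows and mice by genotype in columns. The column of KO mouse 1, a female, holds the highest values of Ldhb, Pgk1 and Tpi1, and the CV columns hold the lowest values of Ldhb.

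Among the genes of lactate handling, Ldhb showed the largest difference of the whole list. It encodes the heart-type subunit of lactate dehydrogenase, which favours the conversion of lactate to pyruvate, and lies on chromosome 6 (142490249 to 142507957, GRCm38.p6). Probe set 10549097 read 11.02, 10.79 and 10.56 in KO mice 1 to 3, 10.63, 10.69 and 10.65 in R47H mice, and 10.48, 10.24 and 10.11 in CV mice (log2). All 3 CV mice lay below all 6 other mice, and the KO and R47H mice overlapped. The difference of CV from KO was -0.51 ± 0.10 SE, 1.42-fold lower in CV, with a limma adjusted p of 0.0598 that just missed the threshold. It was -0.13 ± 0.10 in R47H minus KO and 0.38 ± 0.10 in R47H minus CV (limma adjusted p = 0.945 and 0.192). The other Ldhb probe set, 10462035, gave differences of -0.49, -0.10 and 0.39 in the same order. The 2 sets differed by up to 0.33 on an array, and whether they are independent readings was not checked.

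The Ldhb difference of CV from KO passed the threshold under 5 of 21 alternatives, with limma adjusted p from 0.0359 to 0.590. It was called without KO mouse 3 (-0.60, adjusted p = 0.0359) and without R47H mouse 1 (-0.51, adjusted p = 0.0431). It was not called without any of the other 7 mice, adjusted p reaching 0.227 without KO mouse 1. With the neutrophil marker mean as a covariate it was -0.36 (adjusted p = 0.590), and with the oligodendrocyte marker mean -0.45 (adjusted p = 0.238). In R47H minus CV, Ldhb was 0.22 with the neutrophil covariate and 0.07 with the oligodendrocyte covariate (adjusted p = 0.864 and 0.999).

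Ldha, the muscle-type subunit that makes lactate, ran from 8.61 to 9.17 over the 9 mice and differed by -0.13 ± 0.11 in CV minus KO, -0.01 ± 0.11 in R47H minus KO and 0.12 ± 0.11 in R47H minus CV. The lactate transporter Slc16a1 (MCT1) ran from 5.42 to 5.91, with differences of -0.13 ± 0.10, -0.05 ± 0.10 and 0.08 ± 0.10. Slc16a3 (MCT4), which exports lactate from glycolytic cells, ran from 8.13 to 8.44, with 0.08 ± 0.09, -0.03 ± 0.09 and -0.11 ± 0.09. The groups of these 3 genes overlapped in every comparison. The test of whether Ldhb differed between genotypes by more than Ldha was not run.

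Glucose uptake was represented by Slc2a1 (GLUT1), the transporter through which most macrophages take up glucose. It lies on chromosome 4 (119108745 to 119137330). Slc2a1 read 9.92, 9.47 and 9.64 in KO mice 1 to 3, 9.82, 9.72 and 9.82 in R47H mice, and 10.17, 9.82 and 9.82 in CV mice. The 3 groups overlapped, KO mouse 1 lying above 2 of the CV mice, and the female was highest in every group, though barely so in R47H. The difference was 0.26 ± 0.09 in CV minus KO (limma adjusted p = 0.257), 0.11 ± 0.09 in R47H minus KO and -0.15 ± 0.09 in R47H minus CV. In CV minus KO it stayed above 0 under all 21 alternatives, from 0.19 with the neutrophil covariate to 0.32 without KO mouse 1, and was called under 0 of them.

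Hexokinases trap glucose in the cell by phosphorylating it. Hk2, the inducible form, ran from 7.96 to 8.40 and differed by 0.03 ± 0.08 in CV minus KO and -0.06 ± 0.08 in R47H minus KO. Hk3, a form found in myeloid cells, read 7.03, 6.95 and 7.09 in KO, 7.09, 7.23 and 7.13 in R47H and 7.09, 7.09 and 7.36 in CV. The KO mice lay below the others, KO mouse 3 by less than the rounding shown, with differences of 0.16 ± 0.09 in CV and 0.13 ± 0.09 in R47H (limma adjusted p = 0.493 and 0.940). R47H mouse 1 and CV mice 1 and 2 held exactly the same deposited value, the lowest of both groups. The lack of overlap with KO rests on that value in both comparisons. Hk1, the form of most tissues, could not be read with confidence. Its highest-mean probe set, 10414661, rests on a single accession that is also listed for 16 probe sets annotated to both Rpl17, a ribosomal protein gene, and Hk1. That probe set was lowest in KO mouse 2 (10.06, against 10.31 to 10.68 in the other mice). The mean of the 16 shared probe sets was also lowest there (11.19, against 11.34 to 11.61). It gave 0.15 ± 0.15 in CV minus KO and 0.17 ± 0.15 in R47H minus KO. The other Hk1 probe set, 10369541, which lists the same accession among 8, gave -0.06 and -0.00. Probe set 10414661 stayed in as Hk1 among the 28 tested genes, in the counts, medians and intervals given for the list.

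In upper glycolysis, phosphofructokinase commits sugar to the pathway and has muscle (Pfkm), liver (Pfkl) and platelet (Pfkp) forms. Pfkm, on chromosome 15 (98092589 to 98132447), read 5.47, 5.73 and 5.45 in KO mice 1 to 3, 5.38, 5.65 and 5.57 in R47H mice, and 5.35, 5.08 and 5.30 in CV mice. All CV mice lay below all other mice, but only narrowly below R47H mouse 1. The difference of CV from KO was -0.31 ± 0.11 (limma adjusted p = 0.284) and that of R47H from CV 0.29 ± 0.11 (adjusted p = 0.341), while R47H minus KO was -0.02 ± 0.11. With the neutrophil covariate the difference of CV from KO was -0.16 (adjusted p = 0.969), and without each mouse in turn it ran from -0.42 to -0.21. Pfkm lay just above the filter and was not tested under the stricter one. Pfkl ran from 7.44 to 7.84, with -0.11 ± 0.08 in CV and -0.10 ± 0.08 in R47H against KO. Pfkp, below the filter, had means of 4.66 ± 0.08 (SD, n = 3) in KO, 4.76 ± 0.12 in R47H and 4.93 ± 0.22 in CV, with overlapping groups.

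Aldolase A (Aldoa) splits fructose bisphosphate and was the gene of smallest p in R47H minus KO. It lies on chromosome 7 (126795234 to 126800994). It read 11.12, 10.93 and 10.92 in KO mice 1 to 3, 11.32, 11.12 and 11.15 in R47H mice, and 11.25, 10.97 and 11.10 in CV mice. The female was highest in each group, and KO mouse 1 overlapped the R47H males. The difference was 0.20 ± 0.06 in R47H minus KO (limma adjusted p = 0.608) and 0.12 ± 0.06 in CV minus KO. Triose-phosphate isomerase (Tpi1), which interconverts the products of aldolase, differed by -0.10 ± 0.11 in CV and 0.08 ± 0.11 in R47H against KO. The 6-phosphofructo-2-kinases, which set the level of the activator fructose 2,6-bisphosphate, showed overlapping groups throughout. Pfkfb3 ran from 10.22 to 10.72 and Pfkfb4 from 6.63 to 6.92, and their differences over the 3 comparisons lay between -0.14 and 0.11. Pfkfb2 held exactly the same deposited value, 6.17, on 5 of the 9 arrays, including all 3 KO arrays. Such ties were common: 18437 of 35556 probe sets (51.9%) had the same value on at least 2 arrays. Of the 30 members with a probe set, 12 had tied values. Slc2a1, Hk3, Pfkfb4, Ldha and Taldo1 each held 1 value on 3 arrays. The Pfkfb2 KO standard deviation of 0 is therefore no measure of the spread between mice, and the spread of the other tied genes has the same limit in part.

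In lower glycolysis the 3 tested genes lay slightly below KO in CV, where 45.0% of all genes lay above. The differences were -0.21 ± 0.09 for phosphoglycerate kinase (Pgk1), which makes ATP, -0.07 ± 0.09 for phosphoglycerate mutase (Pgam1) and -0.03 ± 0.10 for pyruvate kinase (Pkm), with limma adjusted p from 0.363 to 0.920. These differences kept their sign under 21 of 21 alternatives for Pgk1, 20 for Pgam1 and 18 for Pkm. Between R47H and KO they were -0.07 ± 0.09, 0.01 ± 0.09 and 0.12 ± 0.10. For Pgk1 and Pgam1, 2 of the 3 probe sets of each gene held identical values on all arrays, so they are not independent readings. The 2 Pkm probe sets differed in level by up to 0.83 on 1 array, and the lower one gave -0.17 in CV minus KO and -0.04 in R47H minus KO. The neuronal enolase Eno2, below the filter, had means of 4.76 ± 0.16 in KO, 4.45 ± 0.22 in R47H and 4.87 ± 0.30 in CV (SD, n = 3).

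The 6 genes of pyruvate oxidation all had differences above 0 in R47H minus KO, where 49.6% of all genes did, and none of the 6 passed the test. For 3 of them the sign turned under an alternative. Pdha1 reached -0.20 and Pdk2 -0.18 with the oligodendrocyte covariate, and Pdk1 reached -0.08 without KO mouse 1. Pdk1 was also -0.04 without R47H mouse 1, and Pdk2 was -0.10 without R47H mouse 1, -0.04 without KO mouse 1 and -0.02 without KO mouse 3. Pdhb encodes the beta subunit of the first enzyme of the pyruvate dehydrogenase complex, on chromosome 14 (8165991 to 8173303). It read 7.68, 7.52 and 7.82 in KO mice 1 to 3, 8.02, 7.90 and 7.85 in R47H mice, and 7.64, 7.67 and 7.67 in CV mice. All 3 R47H mice lay above all 6 others, and KO and CV overlapped. The difference was 0.25 ± 0.09 in R47H minus KO and 0.26 ± 0.09 in R47H minus CV (limma adjusted p = 0.703 and 0.283), and -0.01 ± 0.09 in CV minus KO. Over the alternatives Pdhb in R47H minus KO ran from 0.18 without KO mouse 2 to 0.45 with the oligodendrocyte covariate, with adjusted p from 0.341 to 0.998.

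Pdha1, the X-linked alpha subunit of the same enzyme (X, 160122219 to 160138430), read 7.19, 7.09 and 7.01 in KO mice 1 to 3, 7.36, 7.09 and 7.25 in R47H mice, and 6.94, 7.11 and 6.95 in CV mice. R47H mouse 2 lay within the range of both other groups. The difference was 0.23 ± 0.09 in R47H minus CV (limma adjusted p = 0.334) and 0.14 ± 0.09 in R47H minus KO. With the oligodendrocyte covariate the difference of R47H from CV turned to -0.19 ± 0.21 (adjusted p = 0.999). Dlat, the acetyltransferase core of the complex, gave 0.23 ± 0.11 in R47H minus KO and 0.11 ± 0.11 in both other comparisons. The kinases that inhibit the complex gave 0.03 ± 0.09 for Pdk1, 0.05 ± 0.14 for Pdk2 and 0.23 ± 0.15 for Pdk3 in R47H minus KO, and -0.14 ± 0.09, -0.17 ± 0.14 and 0.15 ± 0.15 in CV minus KO. Over these 6 genes the median difference was 0.19 in R47H minus KO and -0.05 in CV minus KO. R47H mouse 1, the female of its group, had the highest mean of the 6 genes, 0.25 above the average of all mice. It also had the highest mean of the oligodendrocyte markers. All 6 genes had differences above 0 in females minus males as well, where 54.0% of all genes did. The part of other cells in the Pdhb and Pdha1 differences was not tested beyond these covariates.

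**Figure D3:**
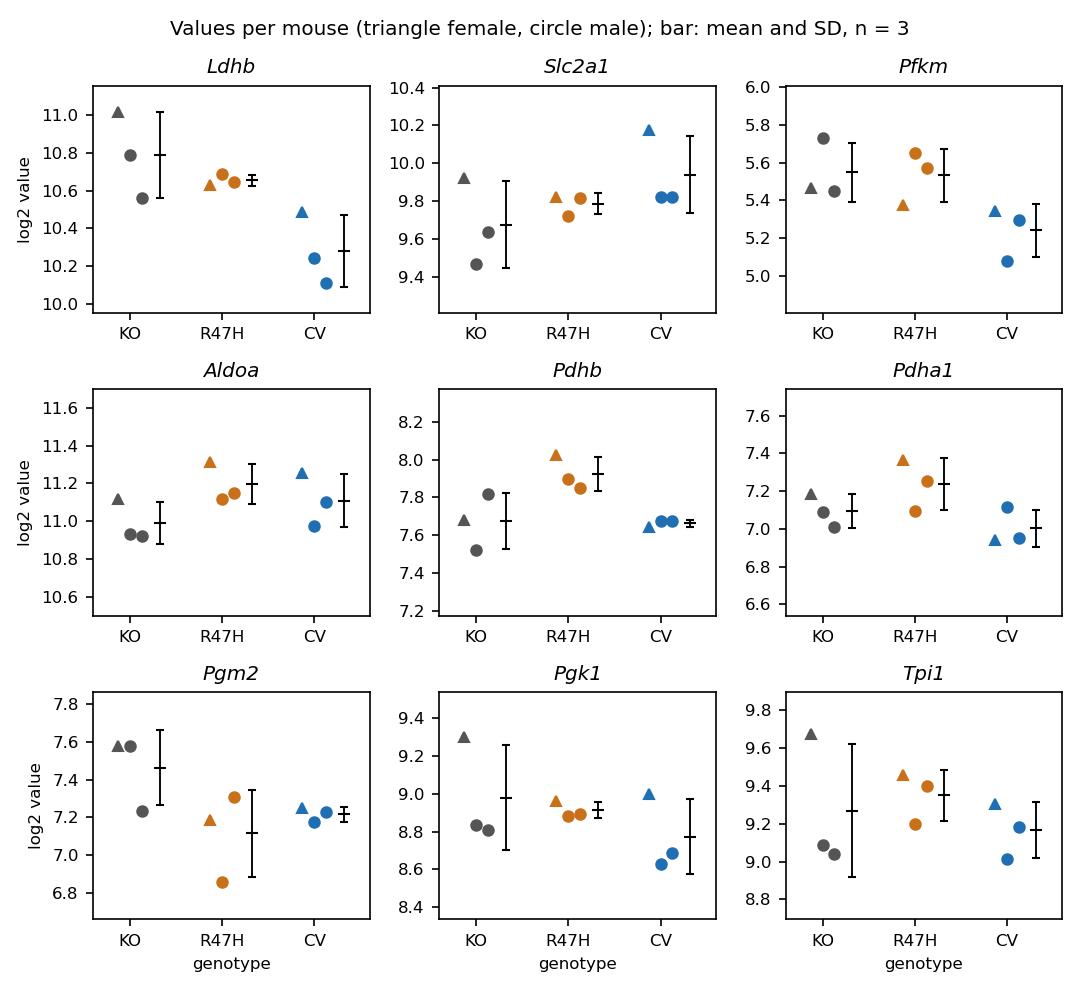
Log2 values per mouse of the 9 genes described in full (triangles females, circles males), by genotype, with the mean and SD of each group (n = 3) at its right. The CV mice are the lowest for Ldhb, the R47H mice the highest for Pdhb, and the females the highest of each group for Pgk1, Tpi1 and Aldoa. Each panel spans 1.2 log2 units.

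The pentose phosphate genes showed no shared direction. Pgd (6-phosphogluconate dehydrogenase), which produces NADPH, read 9.19, 9.20 and 9.11 in KO and 9.27, 9.37 and 9.25 in CV. The groups did not overlap, and the difference was 0.13 ± 0.08 (limma adjusted p = 0.571). R47H differed from KO by -0.01 ± 0.08. The sugar-exchanging enzymes transketolase (Tkt) and transaldolase (Taldo1) differed by 0.10 ± 0.14 and -0.10 ± 0.10 in CV and by 0.11 ± 0.14 and -0.06 ± 0.10 in R47H. The sugar phosphomutase Pgm2 (chromosome 5, 64092919 to 64128355) read 7.58, 7.58 and 7.23 in KO mice 1 to 3, 7.18, 6.86 and 7.31 in R47H mice, and 7.25, 7.17 and 7.23 in CV mice. KO mice 1 and 2 lay above all other mice, and KO mouse 3 lay within the other groups. The difference was -0.35 ± 0.13 in R47H minus KO (limma adjusted p = 0.748) and -0.25 ± 0.13 in CV minus KO. Without R47H mouse 2 the former was -0.23, without R47H mouse 3 it was -0.47, and with the oligodendrocyte covariate -0.77 (limma adjusted p = 0.989).

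In all, the groups did not overlap for 4 of the 28 genes in CV minus KO (Ldhb and Pfkm lower, Hk3 and Pgd higher), which is 14.3% against 14.0% of all tested genes, of which 8.05% were lower and 5.90% higher. Against KO, R47H stood apart for 2 (Hk3 and Pdhb, both higher, 7.14% against 7.11%, of all genes 3.84% higher and 3.27% lower), and against CV for 4 (Ldhb, Pfkm, Pdhb and Pdk1, all higher, 14.3% against 14.9%, of all genes 8.74% higher and 6.17% lower). The shares in both directions together differ from those of the whole array by less than 1 percentage point.

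Differences between the sexes were tested in the same model. Of the 28 genes 0 were called (limma, adjusted p under 0.05), where 0.0648% of all genes were, and 8 had an unadjusted p under 0.05, all higher in females (28.6%, against 11.0% of all genes, or 7.45% counting those higher in females). In females 22 of the 28 lay higher (78.6%, against 54.0% of all genes). The X-linked Pgk1 (gene at X, 106187100 to 106203699) was read from probe set 10399379, whose own location was not checked. Its probe set 10601390 differed from that one by up to 0.09 on an array. Pgk1 read 9.30, 8.96 and 8.999 in the KO, R47H and CV females. In the males it read 8.83 and 8.81 in KO, 8.89 and 8.89 in R47H and 8.63 and 8.69 in CV. All 3 females lay above all 6 males, and the difference was 0.30 ± 0.08 (limma adjusted p = 0.234). Without KO mouse 1 it was 0.21 and without R47H mouse 1 it was 0.41 (adjusted p = 0.685 and 0.374).

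Tpi1, on chromosome 6 (124810586 to 124814158), read 9.67, 9.46 and 9.31 in the KO, R47H and CV females. The males read 9.09 and 9.04, 9.20 and 9.40, and 9.01 and 9.18. The R47H male at 9.40 lay above the CV female, and the difference was 0.33 ± 0.10 (adjusted p = 0.297, limma). It was 0.18 without KO mouse 1. For Aldoa the female minus male difference was 0.20 ± 0.06 (adjusted p = 0.282, limma). Slc2a1, Hk2, Dlat, Ldhb and Pgam1 followed at 0.18 to 0.26. The 10 neutrophil markers had a median difference of -1.43 in females minus males. Of these 0 were called (limma, smallest adjusted p = 0.389), where 0.0648% of all genes were. At an unadjusted p under 0.05 there were 3 (30.0%, against 11.0% of all genes). With the neutrophil covariate the difference of Pgk1 was 0.26 (adjusted p = 0.673).

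**Figure D4:**
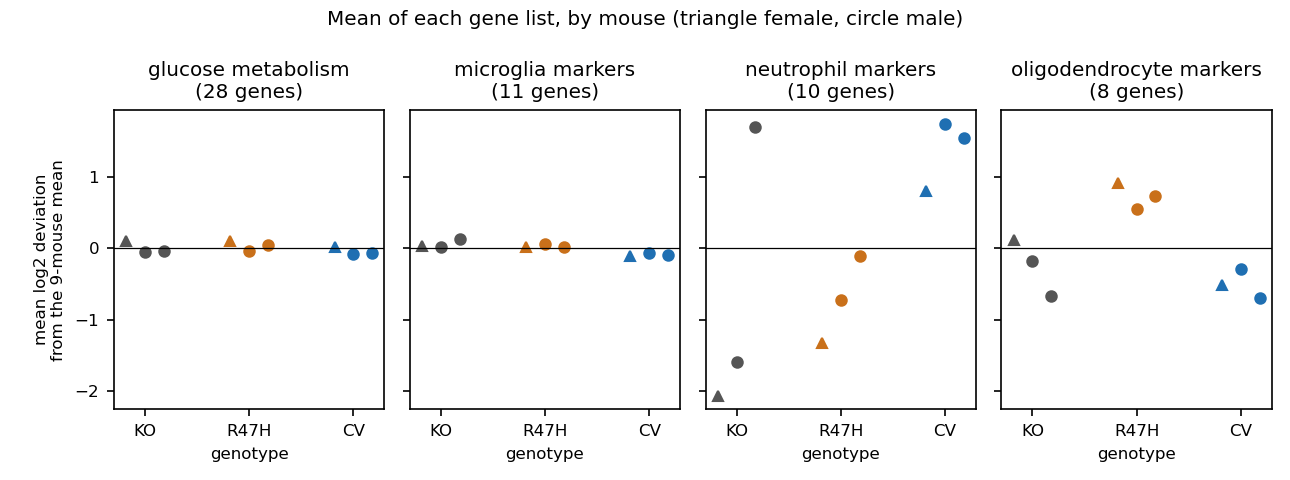
Mean log2 deviation from the 9-mouse mean, per mouse (triangles females, circles males), for the 28 glucose metabolism genes and for 3 lists of cell type markers. The glucose metabolism mean stays between -0.08 and 0.11 in every mouse, while the neutrophil mean ranges from -2.06 to 1.75 and the oligodendrocyte mean is highest in the 3 R47H mice.

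Further genes of glucose metabolism were also without a call. Of 60 listed, 45 were tested and 0 were called in each genotype comparison (limma), with 11, 6 and 9 at an unadjusted p under 0.05 in CV minus KO, R47H minus KO and R47H minus CV. These are 24.4%, 13.3% and 20.0% of the 45, against 13.2%, 5.68% and 12.4% of all tested genes, and the list was not tested as a set. In CV minus KO the genes of smallest p were glycogenin (Gyg, 0.32 ± 0.07), the fructose transporter Slc2a5 (-0.53 ± 0.13) and the ribose-phosphate synthetase Prps2 (-0.38 ± 0.10), with limma adjusted p from 0.0935 to 0.147. In R47H minus CV they were the ADP-dependent glucokinase Adpgk (-0.34 ± 0.06, adjusted p = 0.0667), the brain aldolase Aldoc (1.16 ± 0.23, adjusted p = 0.0777) and the glucose transporter Slc2a3 (-0.51 ± 0.13, adjusted p = 0.149). In R47H minus KO they were Aldoc (0.99 ± 0.23, adjusted p = 0.304), Gyg (0.31 ± 0.07) and the thioredoxin-binding protein Txnip (-0.34 ± 0.13). Aldoc is an astrocyte gene, and the astrocyte marker S100b averaged 6.53 ± 0.71 (SD, n = 3) in the KO mice, 7.86 ± 0.03 in the R47H mice and 5.74 ± 0.12 in the CV mice. Of 10 listed astrocyte markers, all with a probe set of their own, only 4 passed the filter and were tested. S100b was the most extreme of the 4 tested. The others gave 0.46 (Slc1a2), -0.11 (Slc1a3) and -0.07 (Fgfr3) in R47H minus KO and 0.58, 0.15 and -0.01 in R47H minus CV. The medians of all 4 were 0.20 and 0.37, and S100b in R47H minus CV was the only call among them (limma adjusted p = 0.0127). The part of astrocyte RNA in the Aldoc difference was not tested.

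The tricarboxylic acid cycle, which burns the product of pyruvate dehydrogenase, had 22 tested genes of 24 and 0 calls in each comparison (limma), with 4, 0 and 3 at an unadjusted p under 0.05 in the same order. These are 18.2%, 0% and 13.6% of the 22, against 13.2%, 5.68% and 12.4% of all tested genes. In CV minus KO the genes of smallest p were Sdha (-0.21 ± 0.07), Acly (-0.26 ± 0.09) and Idh3g (-0.19 ± 0.07), which encode subunits of succinate dehydrogenase and isocitrate dehydrogenase and, for Acly, the enzyme that cleaves citrate in the cytosol. For R47H minus KO they were Idh3a (0.20 ± 0.09), the citrate carrier Slc25a1 (0.14 ± 0.12) and Idh3g (-0.08 ± 0.07). In R47H minus CV they were Slc25a1 (0.35 ± 0.12), Sdha (0.19 ± 0.07) and Acly (0.21 ± 0.09). Their limma adjusted p ran from 0.256 to 0.950. The median differences of the list were -0.09, -0.03 and 0.06.

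Among 23 tested genes of the HIF system and regulators of glycolysis, 1 was called, in both comparisons of R47H. Of all genes, 0.0834% (against KO) and 0.797% (against CV) were called. In CV minus KO, R47H minus KO and R47H minus CV, 5, 2 and 5 of the 23 had an unadjusted p under 0.05 (limma). These are 21.7%, 8.7% and 21.7%, against 13.2%, 5.68% and 12.4% of all tested genes. Arnt, the partner of Hif1a in HIF-1, fell in R47H and read 8.04, 8.25 and 8.13 in KO mice 1 to 3, 7.33, 7.59 and 7.31 in R47H mice, and 8.04, 8.15 and 8.17 in CV mice. All R47H mice lay below all others. The difference was -0.73 ± 0.08 in R47H minus KO and -0.71 ± 0.08 in R47H minus CV (limma adjusted p = 0.0221 and 0.0119). Leaving out 1 mouse kept the call against KO only without R47H mouse 2, with adjusted p up to 0.120. The call against CV was lost without R47H mouse 1 or any 1 of the CV mice, with adjusted p up to 0.0847. The differences themselves then stayed between -0.81 and -0.63. With the oligodendrocyte covariate they were -0.71 and -0.68 (limma adjusted p = 0.989 and 0.999). The tested list members with a window holding ACGTG or GCGTG, 26 of 28, had a median difference of -0.00 in R47H minus KO, with a range from -0.35 to 0.25. In R47H minus CV their median was 0.08, with a range from -0.15 to 0.38. The 2 members without a match had medians of 0.16 and 0.15 in the same order. Nearly the whole list held a match, so this split is a description only. Any link between Arnt and these genes was not tested. Hif1a itself differed by 0.28 ± 0.07 in R47H minus CV and -0.24 ± 0.07 in CV minus KO (limma adjusted p = 0.178 and 0.208). Egln1, the prolyl hydroxylase that marks Hif1a for destruction, gave 0.39 ± 0.09 and -0.27 ± 0.09, and the HIF target Bnip3 gave 0.27 ± 0.09 and -0.45 ± 0.09, none of them called. Behind Arnt in R47H minus KO came Sirt6 at -0.20 ± 0.07 and Arnt2 at 0.23 ± 0.12, also not called.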

How the data were processed

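Gene expression was measured on 9 Affymetrix Gene ST arrays, 1 per mouse, from 2 ng of total RNA of sorted cells, per the labels' protocols. The deposited values were taken as log2 from their range (1.31 to 13.9) and used as deposited, with array medians of 5.28 to 5.35; for the authors' background correction, normalization and probe summary no method was found in the labels or file. The platform annotation gave the gene names: 21789 carried 1 symbol, 1621 several and 12146 none. The highest-mean single-symbol probe set stood for each gene, and genes with a mean at or above the 50th percentile of all probe sets were tested. Coordinates and promoter windows are those of the gene in RefSeq (GRCm38.p6), and the location of each probe set was not checked.

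Models were fitted with limma 3.58.1 (R 4.3.3, lmFit and eBayes) over all 9 arrays with terms for genotype and sex. This gave 5 residual and 3.73 prior degrees of freedom. The code was first run on simulated data, and no power to call differences as small as those seen here is claimed from that. Tests were two-sided, with Benjamini-Hochberg adjustment over 10795 genes. The labels name separate mice. An exact permutation test of 3 mice against 3 has a smallest p of 0.1, so the model across all genes was used. The number of arrays limits the precision. Described in full were called genes, those with groups not overlapping and a difference of at least 0.3, and the 3 of smallest p per comparison; of the other lists, the called genes and 3 of smallest p. Alternatives changed the filter, the probe set rule, the normalization, the model and the mice included. The members and lists were chosen with earlier results of these data known. The lists of other glucose metabolism genes, the tricarboxylic acid cycle, the HIF system with glycolysis regulators, and cell type markers came from general knowledge. Markers of monocytes, border-associated macrophages, astrocytes, neurons, endothelial cells and lymphocytes served as background; in CV minus KO their median differences were 0.70 (7 tested), -0.15 (8, 1 called), -0.19 (4), none tested, 0.49 (2, 1 called) and -0.06 (1). In R47H minus KO they were -0.29, 0.21, 0.20, none tested, 0.23 and 0.02, and in R47H minus CV -0.94, 0.28 (1 called), 0.37 (1 called), none tested, -0.26 and 0.08.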

Additional observations from a re-analysis of the deposited data

How the results depend on the processing

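The count of 0 called glucose metabolism genes held under all alternatives in R47H minus KO, R47H minus CV, the test of any genotype difference and female minus male. In CV minus KO it became 1, always Ldhb, with the mean of all probe sets of a gene, with the trend and robust options of eBayes and with arrays centred on their median, and it ran from 0 to 1 without each mouse in turn. Of 2260 recomputed differences 112 changed sign, and among differences with an unadjusted p under 0.05 that was 1 of 373, Pdha1 in R47H minus CV at -0.19 with the oligodendrocyte covariate. The same covariate moved the median of the members to -0.08 in R47H minus KO and -0.01 in R47H minus CV. The labels do not say that mouse numbers mark pairs. Deviations of same-numbered mice correlated at over 0.1 in 7 of 9 pairs, up to 0.36, but at 0.00 and -0.04 for KO mouse 2, and the numbers were taken as pairs only if every pair was over 0.1. The mouse number is partly sex, and 5 of 9 mice correlated best with their own number in both other groups. With mouse number as a replicate block in place of sex 0 members were called in each comparison, and all genes called numbered 136, 11 and 83 in CV minus KO, R47H minus KO and R47H minus CV, against 131, 9 and 86. Over all genes the counts moved most with the neutrophil covariate (22, 15 and 9), the oligodendrocyte covariate (63, 0 and 0), only the compared groups (54, 1 and 91), sex left out (77, 3 and 60), no filter (100, 8 and 48) and trend and robust options (153, 15 and 96); the stricter filter gave 124, 6 and 67. Without 1 mouse they ran from 59 to 172, 0 to 7 and 9 to 132, and for any genotype difference from 35 to 163 against 142, which was 85 with sex left out, 37 with the neutrophil and 53 with the oligodendrocyte covariate. Female minus male gave 3 with either covariate and 3 to 5 without 1 mouse, against 7. The causes of these moves were not tested. Genes near the filter, such as Pfkm, have little signal over background.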
